A study of Bos taurus with 15 samples.

Results

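The genes described here were KIT, CSF1R, and FLT3, the 3 hematopoietic class III receptor tyrosine kinases, and their ligands KITLG, CSF1, IL34, and FLT3LG, in single-cell libraries of Holstein cattle tissues. The 7 genes were found by symbol in the gene table that all libraries shared, which lists 27270 genes: KIT (ENSBTAG00000002699), KITLG (ENSBTAG00000017549), CSF1R (ENSBTAG00000012771), CSF1 (ENSBTAG00000000283), IL34 (ENSBTAG00000009357), FLT3 (ENSBTAG00000018572), and FLT3LG (ENSBTAG00000038045). Their level was measured in CPM (the UMIs of a gene scaled to the UMI total of a group of cell barcodes in one library) and as the share of barcodes with at least 1 UMI.

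KIT binds KITLG (stem cell factor), CSF1R binds CSF1 (macrophage colony-stimulating factor) and IL34, and FLT3 binds FLT3LG. Binding brings receptor molecules together, the kinase domains phosphorylate each other, and PI3K, STAT5, and RAS signaling follow. KIT is known for mast cells, melanocytes, interstitial cells of Cajal, and hematopoietic progenitors, CSF1R for monocytes and macrophages, and FLT3 for progenitors and dendritic cells, whereas the ligands are made largely by stromal, endothelial, and epithelial cells and, for FLT3LG, by lymphocytes.

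Cells of newborn (NB) and adult (AD) cattle were compared in 15 libraries, 1 per tissue and stage. The 11 NB libraries came from 3 calves and covered the liver, the salivary gland, the stomach (reticulum, omasum, and abomasum), the large intestine (rectum, colon, and cecum), and the small intestine (ileum, jejunum, and duodenum), without a record of which calf gave which library. The 4 AD libraries (duodenum, jejunum, cecum, and colon) all came from 1 lactating cow, so that stage, animal, and the enzymes used to dissociate the tissue cannot be told apart. The outer muscle, where interstitial cells of Cajal chiefly lie, was removed from the gut samples of both stages before dissociation. The labels list no treatment.

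Of 172405 barcodes, 119798 were kept after filtering, with library totals of 17707625 to 129458578 UMIs and medians of 3521 to 8804.5 UMIs per kept barcode. No pair of libraries shared more than 38 kept barcodes. Barcodes were placed in 7 classes by a single gene each: CPA3 (a mast cell protease; 493 barcodes), C1QA (a complement subunit of macrophages; 13920), CD3E (the T cell receptor complex; 31256), COL1A2 (collagen of fibroblasts; 5994), PECAM1 (an endothelial adhesion molecule; 5814), MYH11 (smooth muscle myosin; 849), and EPCAM (an epithelial adhesion molecule; 16036), which left 45436 barcodes in no class. The marker list of the matching cell type, summed without the class gene, was the highest of 17 marker lists in every sum of at least 20 barcodes except for the CD3E sums of the newborn jejunum and newborn liver, a check added after the sums were seen. There the T cell markers besides CD3E summed to 713 and 589 CPM and the innate lymphoid markers to 936 and 646 CPM. Sums of at least 20 barcodes per library and class are reported, which gave 7 libraries for CPA3, 13 for C1QA, CD3E, and EPCAM, 11 for COL1A2 and PECAM1, and 8 for MYH11. Among AD libraries, the COL1A2, PECAM1, and MYH11 classes reached 20 barcodes in the colon only, with 98, 24, and 26 barcodes.

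The 3 receptors were highest in different cells. KIT was highest in CPA3 barcodes in 7 of the 7 libraries with that class, and CSF1R was highest in C1QA barcodes in 13 of 13 libraries. FLT3 had class medians between 0 and 3.53 CPM and at most 32.9 CPM in a class (PECAM1 barcodes of the NB liver, 8 UMIs in 7 of 38 barcodes), and most of its UMIs lay in barcodes of no class. Among the ligands, FLT3LG was highest in CD3E barcodes in 13 of 13 libraries, IL34 in COL1A2 barcodes in 11 of 11, and KITLG in PECAM1 barcodes in 7 of 11. CSF1 had no single leading class and was highest in CPA3 barcodes in 4 libraries, in CD3E barcodes in 5, and in COL1A2 barcodes in 5. The plot of levels by class shows these patterns library by library.

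**Figure D1:**
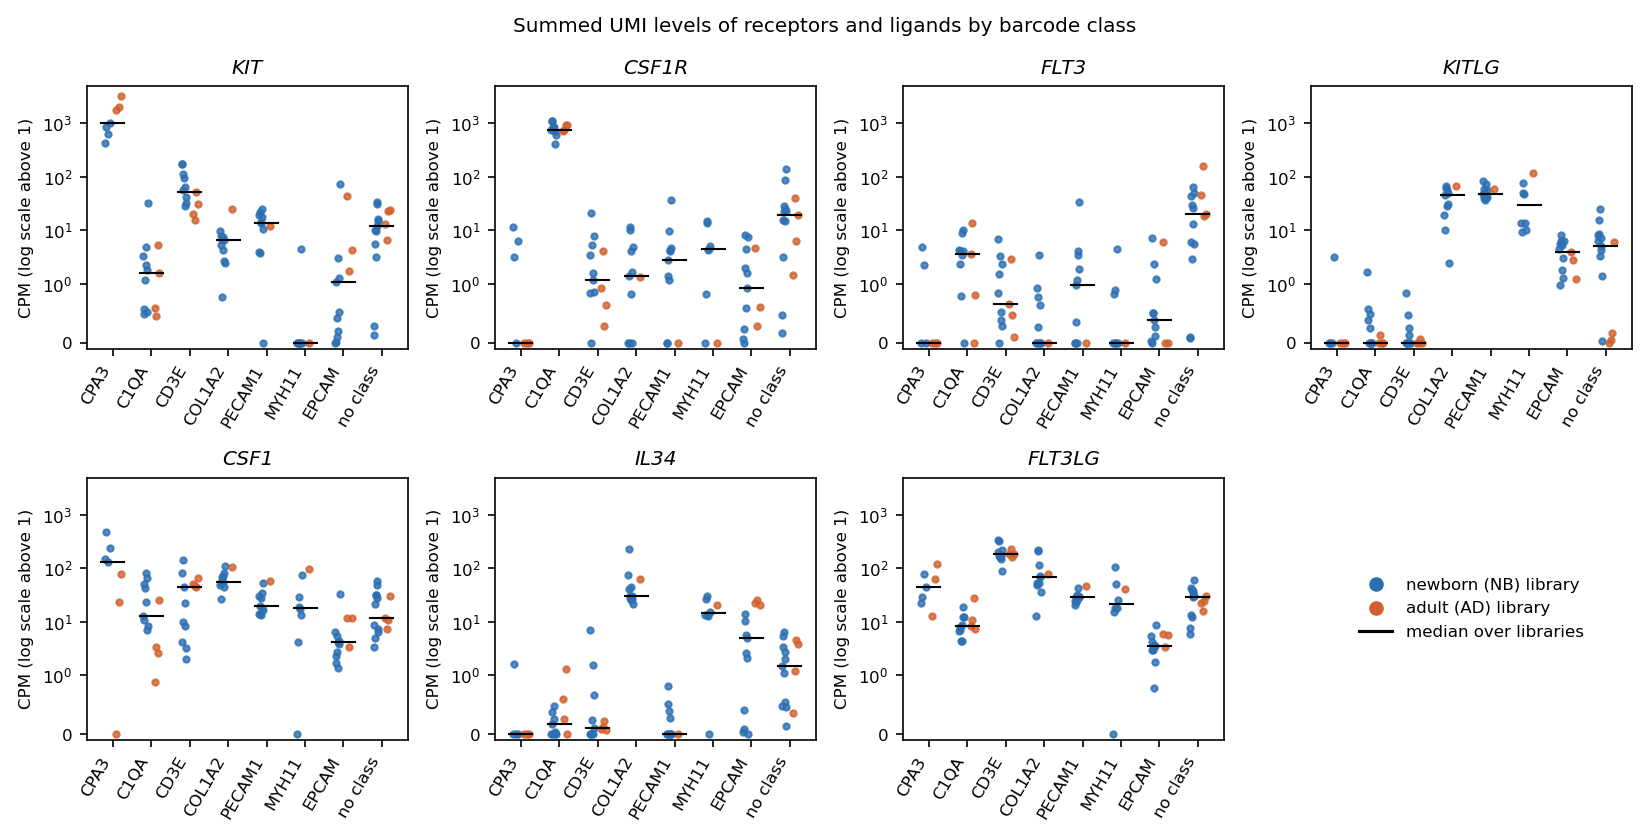
Summed level of each gene (CPM, log scale above 1 and linear below) in each barcode class and in barcodes of no class, with 1 point per library (blue NB, orange AD) and a bar at the median over libraries. KIT stands apart in CPA3 barcodes at 437 to 3200 CPM and CSF1R in C1QA barcodes at 415 to 1088 CPM, whereas the classes of CSF1 overlap.

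KIT, the stem cell factor receptor, reached 437 CPM in CPA3 barcodes of the NB ileum, 637 CPM in the NB colon, 849 CPM in the NB cecum, and 1005 CPM in the NB rectum. In the AD libraries it reached 1743 CPM in the duodenum, 2064 CPM in the jejunum, and 3200 CPM in the colon. All 3 AD values therefore lay above all 4 NB values, although no tissue had both stages with 50 CPA3 barcodes. In the colon, the counting intervals of 565 to 716 CPM (NB, 110 barcodes) and 2726 to 3732 CPM (AD, 21 barcodes) did not overlap. The intervals are exact 95% Poisson intervals for CPM and exact 95% binomial (Clopper-Pearson) intervals for shares, and they cover counting error only. The share of CPA3 barcodes with a KIT UMI was 70.4% to 90.7% in NB and 93.1% to 97.5% in AD libraries, and after thinning each barcode to 1000 UMIs it was 44.3% to 59.2% and 74.9% to 92.8%. Mast cell markers summed to 5917 to 7015 CPM in the AD and 4755 to 8098 CPM in the NB libraries, with none of the 8 genes at 0, so that the AD marker sums lay within the NB range. Without CPA3 itself they were 2666 to 4351 CPM in the AD and 3009 to 6619 CPM in the NB libraries, with the AD colon the lowest.

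KIT was next highest in CD3E barcodes. There it was 174 CPM in the NB abomasum, 171 CPM in the NB duodenum, 114 CPM in the NB jejunum, 93.4 CPM in the NB cecum, and 65.0 CPM in the NB colon. The NB ileum, liver, salivary gland, and rectum had 55.3, 42.4, 32.1, and 27.8 CPM. The AD cecum, colon, duodenum, and jejunum had 51.2, 31.2, 20.0, and 15.8 CPM, so that NB and AD libraries overlapped. In the NB abomasum, 118 of 261 CD3E barcodes (45.2%; interval 39.1% to 51.5%) held a KIT UMI at a median of 4039 UMIs per barcode, against 2 of 149 C1QA barcodes (1.34%) at a median of 7324 UMIs. Over the 13 libraries, the share of barcodes with KIT had a median of 14.3% in CD3E and 0.99% in C1QA barcodes, and of 3.78% and 0.275% after thinning, which left out 0 to 27 barcodes of a sum. C1QA barcodes, which should lack the gene, therefore gave a lower share of KIT both before and after thinning.

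In the other classes, KIT had medians of 13.9 CPM in PECAM1 (0 to 24.5 CPM), 6.44 CPM in COL1A2 (0.77 to 25.3 CPM), and 1.07 CPM in EPCAM barcodes (0 to 74.5 CPM). The low EPCAM median covered 2 libraries with high levels, the NB liver with 74.5 CPM (42 of 113 barcodes) and the AD jejunum with 44.5 CPM (39 of 142 barcodes), whereas the other 11 libraries had at most 4.28 CPM. C1QA barcodes had a median of 1.61 CPM, with 32.7 CPM in the NB salivary gland from 8 UMIs in 2 barcodes, and the MYH11 sums held 1 KIT UMI over all libraries. In the edgeR model, in which each class was set against the mean of the other 6 with the library as a block, so that p-values cover the spread between libraries and not between the 4 animals, KIT was higher in CPA3 barcodes by 8.17 on the log2 scale (SE 0.57; edgeR quasi-likelihood test, adjusted p = 1.11e-18) and in CD3E barcodes by 3.28 (SE 0.51; adjusted p = 9.77e-08). Without the NB cecum the first was 8.91, and with doublets left in they were 7.02 and 2.43. The range of CPA3 barcodes did not overlap that of CD3E barcodes, while all later neighbors in the order of levels overlapped.

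KITLG, the membrane-bound and shed ligand of KIT, was measured outside the leukocyte classes. In PECAM1 barcodes it lay between 36.5 CPM (NB jejunum) and 81.9 CPM (NB reticulum), with a median of 46.8 CPM over 11 libraries. In COL1A2 barcodes the median was 46.2 CPM, with 2.40 CPM in the NB salivary gland, 10.2 CPM in the NB abomasum, and 68.3 CPM in the NB jejunum as low and high ends. In MYH11 barcodes it ranged from 9.11 CPM (NB abomasum) to 116 CPM (AD colon). These 3 classes overlapped, and each lay above the other classes by the edgeR test, with log2 differences of 4.38 (SE 0.29; adjusted p = 3.64e-20) in PECAM1, 3.79 (SE 0.29; adjusted p = 2.43e-17) in COL1A2, and 3.43 (SE 0.39; adjusted p = 8.77e-11) in MYH11 barcodes. Without the NB rectum these were 5.22, 4.61, and 4.38. EPCAM barcodes had 0.97 to 8.20 CPM, and the CD3E, C1QA, and CPA3 sums of at least 20 barcodes held 7, 22, and 1 KITLG UMIs over all libraries. The classes that carried the ligand were thus not those with the highest KIT level.

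**Figure D2:**
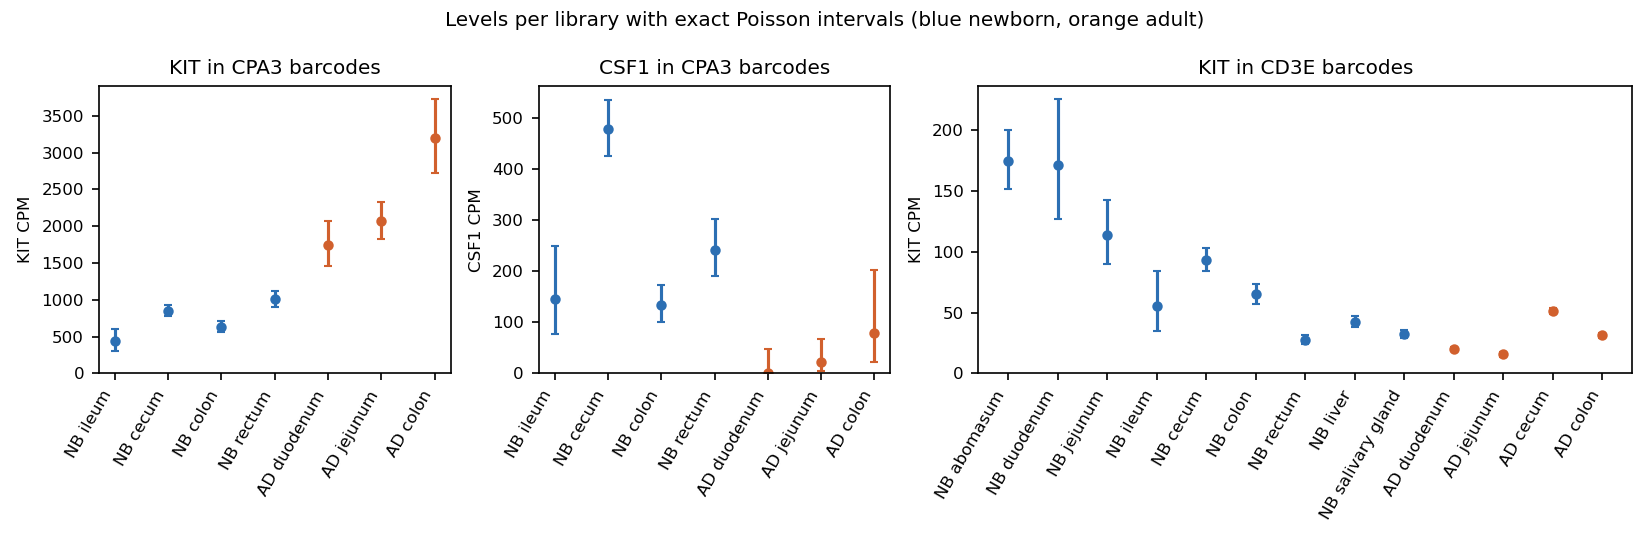
KIT in CPA3 barcodes, CSF1 in CPA3 barcodes, and KIT in CD3E barcodes of each library (CPM on linear axes that differ between panels, blue NB, orange AD), with exact 95% Poisson intervals as bars. In CPA3 barcodes KIT is higher in the 3 AD libraries (1743 to 3200 CPM) than in the 4 NB libraries (437 to 1005 CPM), and CSF1 is lower in the AD (0 to 79.0 CPM) than in the NB libraries (133 to 478 CPM).

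CSF1R, the macrophage colony-stimulating factor receptor, was 415 CPM in C1QA barcodes of the NB liver, 753 CPM at the median, and 1088 CPM in the NB duodenum, which marked the ends of 13 libraries. The AD duodenum, jejunum, colon, and cecum had 734, 749, 942, and 943 CPM and lay inside the NB range. Between 65.8% and 94.6% of C1QA barcodes held a CSF1R UMI, and 32.1% to 62.5% after thinning, against a median of 0.89% and 0.165% of CD3E barcodes. No other class exceeded 37.1 CPM (PECAM1 barcodes of the NB liver, 9 UMIs). The log2 difference in C1QA barcodes was 8.64 (SE 0.24; edgeR adjusted p = 1.07e-37). Barcodes of no class had 141 CPM in the NB liver and 87.4 CPM in the NB rectum, above the 0.169 to 40.4 CPM of the other 13 libraries.

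CSF1, the first of the ligands of CSF1R, had its highest single level in CPA3 barcodes. It was 478 CPM in the NB cecum, 241 CPM in the NB rectum, 146 CPM in the NB ileum, and 133 CPM in the NB colon. The AD colon had 79.0 CPM (4 UMIs), the AD jejunum 23.1 CPM (3 UMIs), and the AD duodenum 0 UMIs, which allows up to 39.0 CPM by a floor of 3 counts. The 4 NB values were thus above the 3 AD values, the reverse of the order of KIT in the same barcodes, although the interval of the AD colon (21.5 to 202 CPM) overlapped those of 3 NB libraries. In COL1A2 barcodes CSF1 lay between 26.7 CPM (NB omasum) and 110 CPM (NB salivary gland) with a median of 55.9 CPM, and in CD3E barcodes between 1.98 CPM (NB salivary gland) and 144 CPM (NB jejunum) with a median of 43.7 CPM. The edgeR contrast was 2.71 (SE 0.49; adjusted p = 1.63e-05) for CPA3 and 1.08 (SE 0.40; adjusted p = 0.0201) for COL1A2 barcodes, the second of which was lost without the NB abomasum or the NB salivary gland and in classes by 1 UMI of the class gene and 0 of the others (0.90). C1QA barcodes, which carry the receptor, held 0.88 CPM (AD duodenum) to 82.9 CPM (NB cecum) of the ligand.

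IL34, the other ligand of CSF1R, was a gene of COL1A2 barcodes. It reached 233 CPM in the NB omasum, 76.2 CPM in the NB reticulum, and 64.0 CPM in the AD colon, and the other 8 libraries had 21.6 to 44.5 CPM. The interval of the omasum (195 to 276 CPM) overlapped that of no other COL1A2 sum. MYH11 barcodes had 0 to 29.6 CPM. EPCAM barcodes had 0 to 25.8 CPM, with the 3 AD libraries (20.2 to 25.8 CPM) above the 10 NB libraries (0 to 14.0 CPM). These AD libraries were all of the intestine. The NB ones also included the liver and the reticulum, omasum, and abomasum (0.03, 0.42, and 0.10 CPM). The log2 differences were 5.37 (SE 0.45; edgeR adjusted p = 5.42e-16) in COL1A2, 3.601 (SE 0.69; adjusted p = 2.09e-05) in MYH11, and 2.20 (SE 0.48; adjusted p = 7.39e-05) in EPCAM barcodes. Without the NB cecum these were 6.34, 4.69, and 2.99. PECAM1 sums of at least 20 barcodes held 10 IL34 and 842 CSF1 UMIs over all libraries.

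FLT3, the receptor of dendritic cells and progenitors, was highest in barcodes of no class. Their levels were 156 CPM in the AD jejunum, 64.1 CPM in the NB cecum, 50.4 CPM in the NB liver, 44.6 CPM in the AD duodenum, and 42.9 CPM in the NB duodenum. The NB jejunum, NB rectum, AD colon, AD cecum, and NB colon had 13.1 to 29.2 CPM. The NB abomasum, salivary gland, and ileum had 2.94 to 6.07 CPM, and the NB reticulum and omasum under 0.1 CPM. PTPRC, a leukocyte gene, was found in 0.14% and 0.05% of the barcodes of no class in the NB reticulum and omasum. Its share was 61.3% in the AD jejunum and 43.5% in the NB ileum, and its part in the FLT3 levels was not tested. Within the 7 classes, C1QA barcodes had a median of 3.53 CPM (0 to 13.6 CPM), and FLT3 was higher there by 2.01 (SE 0.39; edgeR adjusted p = 1.47e-05), with 1.14 to 3.09 under the other settings in which it was tested. Of C1QA barcodes a median of 1.75% held a FLT3 UMI, against 0.304% of CD3E barcodes, and after thinning 0.168% against 0.0373%. C1QA barcodes with and without FLT3 were compared in 5 libraries, an addition made after the levels were seen. The leading gene was CST3 (median 9655 against 2594 CPM), and CLEC9A, a dendritic cell marker, was 52.3 against 1.71 CPM. The EPCAM barcodes of the NB abomasum had 7.03 CPM (232 of 3603 barcodes), which was near the 6.07 CPM of barcodes of no class in that library.

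FLT3LG, the ligand of FLT3, was 90.5 CPM in CD3E barcodes of the NB salivary gland, 185 CPM at the median, and 338 CPM in the NB duodenum. The NB jejunum and AD jejunum followed at 319 and 231 CPM. In COL1A2 barcodes the NB duodenum (220 CPM) and NB jejunum (207 CPM) were again at the top, and the NB reticulum (12.7 CPM) was lowest. FLT3LG was higher in CD3E barcodes by 3.26 (SE 0.18; edgeR adjusted p = 2.08e-24) and in COL1A2 barcodes by 1.47 (SE 0.20; adjusted p = 1.02e-08). The difference of 1.04 in CPA3 barcodes (SE 0.34; adjusted p = 0.0175) was lost without the AD jejunum, the AD colon, or the NB colon, with 0.52 as the lowest value, and under 8 of 13 other settings (0.66 to 1.07). C1QA barcodes held 4.33 to 27.3 CPM and EPCAM barcodes 0.79 to 8.69 CPM.

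Over all 7 classes, 28 of 49 contrasts of the 7 genes passed the edgeR test, 15 higher and 13 lower. CPA3 barcodes had 3 of 7 genes higher (KIT, CSF1, and FLT3LG) beside 12.3% of the 11904 genes tested, and 0 lower beside 10.1%, also at an unadjusted p under 0.05 and by DESeq2. COL1A2 barcodes had 4 higher (KITLG, CSF1, IL34, and FLT3LG) beside 28.3% and 1 lower (CSF1R) beside 23.2%. C1QA barcodes had 2 higher (CSF1R and FLT3) beside 29.7% and 3 lower (KITLG, IL34, and FLT3LG) beside 26.2%. In CD3E barcodes 2 were higher (KIT and FLT3LG) beside 36% and 3 lower (KITLG, CSF1R, and IL34) beside 27.2%. PECAM1 barcodes had 1 higher (KITLG) beside 26.2% and 2 lower (CSF1R and IL34) beside 20.6%, and MYH11 barcodes had 2 higher (KITLG and IL34) beside 19.7% and 1 lower (KIT) beside 19.8%. EPCAM barcodes had 1 higher (IL34) beside 34.1% and 3 lower (CSF1, CSF1R, and FLT3LG) beside 27.1%. CSF1R in PECAM1 barcodes turned to 0.66 without the condition that barcodes lack PTPRC, and lost its call without the library block (-1.16) and in classes by 1 UMI of the class gene and 0 of the others (-0.89), where 8 of the 13 lower calls were lost. Many of the lower calls rested on sums at or near 0 UMIs, where the fitted difference has no reliable size.

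The PDGF genes, whose receptors PDGFRA and PDGFRB belong to the same receptor class, were laid out otherwise. PDGFRA and PDGFRB were higher in COL1A2 barcodes by 6.99 and 6.25 and in MYH11 barcodes by 5.83 and 5.51 on the log2 scale. The ligand PDGFB was higher in C1QA (3.27) and PECAM1 barcodes (2.47), PDGFD in PECAM1 barcodes (3.04), PDGFA in EPCAM (2.37) and CPA3 barcodes (2.02), and PDGFC in MYH11 (3.62) and COL1A2 barcodes (2.20). Of the 6 genes, 5 were higher and 0 lower in MYH11 barcodes (19.7% and 19.8% of all genes), with a median log2 difference of 2.86 beside -0.13 over all genes. In COL1A2 barcodes 4 were higher and 0 lower (28.3% and 23.2% of all genes), with a median of 2.31 beside -0.01. In CPA3 barcodes 1 was higher and 0 lower (12.3% and 10.1% of all genes), with a median of -2.21 beside -0.17. C1QA barcodes had 1 higher and 2 lower, PECAM1 barcodes 2 and 2, and CD3E and EPCAM barcodes 1 and 3 each, beside the shares given above.

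Signaling genes below the receptors were followed in a list of 30, of which 26 were tested. In CPA3 barcodes 9 were higher and 0 lower, beside 12.3% and 10.1% of all genes, with a median log2 difference of 0.50 beside -0.17 over all genes. The 4 largest were VAV1, an exchange factor (2.66), DUSP6, an ERK phosphatase (2.39), PIK3CG, a PI3K subunit (2.28), and INPP5D, a lipid phosphatase (2.22). C1QA barcodes had 14 higher and 6 lower (29.7% and 26.2% of all genes), with VAV1 (4.22), PIK3R5 (3.99), and the SRC family kinase LYN (3.53) highest and SPRY1, an inhibitor of RAS signaling, at -3.60. CD3E barcodes had 16 higher and 7 lower (36% and 27.2% of all genes), led by PIK3CD (4.44), FYN (3.28), and PIK3R5 (3.21), with the inhibitor SPRED1 at -6.15. EPCAM barcodes had 1 higher and 21 lower (34.1% and 27.1% of all genes), with a median of -1.10 beside 0.04. COL1A2 barcodes had 10 and 10 (28.3% and 23.2% of all genes), PECAM1 barcodes 11 and 5 (26.2% and 20.6%), and MYH11 barcodes 4 and 12 (19.7% and 19.8%).

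Of 12 transcription factors of the lineages that need these receptors, 11 were tested. CPA3 barcodes had 4 higher, GATA2 (9.17), TAL1 (4.83), MITF (3.75), and SPI1 (3.13), and IRF8 lower at -2.75. C1QA barcodes had 7 higher and 1 lower, among them SPI1 (5.92), BATF3 (5.63), and IRF8 (3.72), and a median of 2.59 beside -0.04 over all genes. PECAM1 barcodes shared GATA2 (4.31) and TAL1 (4.30) with CPA3 barcodes and had 3 higher and 2 lower. COL1A2 barcodes had 2 higher and 5 lower, MYH11 barcodes 1 and 3, and CD3E and EPCAM barcodes 1 and 7 each. These counts stand beside the shares of all genes given for each class with the signaling genes. Of 14 genes of other hematopoietic cytokine pairs 5 were tested. Among them were CSF2RB, the common beta receptor chain (6.11 in CPA3 and 4.43 in C1QA barcodes), and IL7R (6.25 in CD3E and 5.20 in C1QA barcodes). CSF2 was at 6.79 in CD3E barcodes and CSF3 at 3.39 in PECAM1 barcodes. C1QA and PECAM1 barcodes had 3 higher and 0 lower each, and CPA3 barcodes 1 and 0. CD3E barcodes had 2 and 2, COL1A2 and EPCAM barcodes 1 and 1 each, and MYH11 barcodes 0 and 1. Of 5 proteases known to shed such ligands 4 were tested, and in PECAM1 barcodes ADAM10 (1.93) and ADAM17 (1.27) were higher and ADAM9 was lower at -1.32. In C1QA barcodes MMP9 (2.49) and ADAM9 (1.82) were higher and 0 were lower. COL1A2 barcodes had 1 higher and 1 lower, CPA3, CD3E, and MYH11 barcodes 0 and 1 each, and EPCAM barcodes 0 and 2. The counts of cytokine genes and proteases stand beside the same shares of all genes, such as 26.2% higher in PECAM1 and 29.7% in C1QA barcodes.

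Outside the class that led, the receptors marked further kinds of barcodes. A KIT UMI was found in 5378 barcodes (4.49% of those kept), of which 48.2% were CD3E, 7.85% CPA3, 6.94% PECAM1, and 30.2% in no class. Of the 2331 barcodes with at least 2 KIT UMIs, 1162 were CD3E, 350 CPA3, 77 PECAM1, and 642 in no class, so that the CPA3 share was higher and the PECAM1 share lower. CSF1R was found in 15724 (13.1%), of which 72.8% were C1QA and 22.4% in no class. FLT3 was found in 4766 (3.98%), of which 81.6% were in no class and 9.17% C1QA. Of the 2301 barcodes with at least 2 FLT3 UMIs, 89.5% were in no class and 5.43% C1QA. The stacked shares show the same barcodes in each library.

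**Figure D3:**
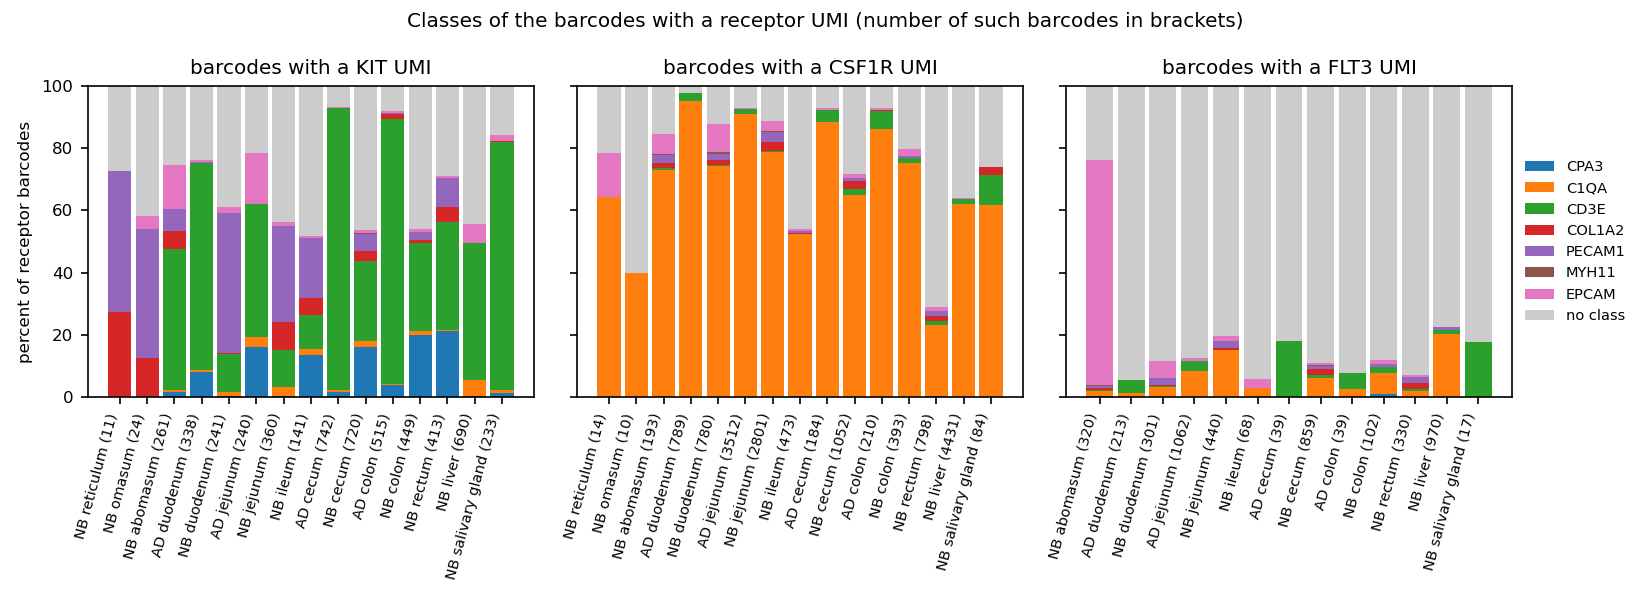
Classes of the barcodes with a KIT, CSF1R, or FLT3 UMI in each library, as stacked percentages of those barcodes, with their number in brackets. CSF1R bars are mostly C1QA, except for the NB rectum (183 of 798) and the NB omasum (4 of 10), and FLT3 bars are mostly of no class, except for the NB abomasum, where 232 of 320 FLT3 barcodes are in the EPCAM class.

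Barcodes with and without a receptor UMI were then compared within each library, as a description without a test. For KIT outside CPA3 barcodes (15 libraries), the 10 genes with the highest median ratio were HBG, CTSW, CRABP1, ENSBTAG00000009943, PTI, GZMB, CCL5, TCF7, UBD, and CD7. They include cytotoxic and lymphocyte genes such as CTSW, a cathepsin (median 390 CPM with KIT against 47.8 CPM without), and TCF7, a lymphocyte transcription factor (120 against 13.8 CPM). KIT barcodes of no class (1619 barcodes in 14 libraries) were compared likewise, an addition made after these levels were seen. The leading genes by the median were PTI (609 against 4.83 CPM), GZMB (556 against 5.17 CPM), HBG (681 against 7.54 CPM), and CRABP1 (404 against 9.51 CPM). HBG and CRABP1 were higher with KIT in all 14 libraries. GZMB was 0.68 against 1.91 CPM in the NB liver and 3.67 against 3.47 CPM in the NB salivary gland. PTI was 22.4 against 2.91 CPM in the NB liver and 0 against 5.20 CPM in the NB salivary gland. Both PTI and GZMB were at 0 in the NB omasum. Further down, IL7R, the interleukin 7 receptor chain, was 270 against 27.4 CPM and TMIGD2 104 against 2.08 CPM. IL7R was 158 against 132 CPM in the NB rectum and 0 against 0.19 CPM in the NB omasum. The summed innate lymphoid markers of these barcodes had a median of 813 against 66.8 CPM and were higher in 13 of 14 libraries, and the mast cell markers had 127 against 42.9 CPM and were higher in 12. Interstitial cell of Cajal markers differed little in KIT barcodes outside CPA3, with 54.5 against 43.7 CPM.

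KIT barcodes in the EPCAM class were of more than 1 kind. In the AD jejunum, ALOX5AP, which is needed for leukotriene synthesis, was 2442 CPM in the 39 KIT barcodes against 125 CPM in the others, and in the NB abomasum 1086 CPM in 37 barcodes against 1.07 CPM. LTC4S, the leukotriene C4 synthase, was 5456 against 362 CPM and 624 against 1.44 CPM, and RGS13, a regulator of G protein signaling, 1474 against 90.0 CPM and 386 against 1.58 CPM. In the 42 KIT barcodes of the NB liver these genes were absent or nearly so, with 3.03 CPM of ALOX5AP and 0 of LTC4S and RGS13. Within CD3E barcodes (13 libraries), KIT went with CTSW (834 against 260 CPM) and IKZF2, a lymphoid transcription factor (193 against 89.9 CPM), at nearly the same T cell marker sum (2192 against 2335 CPM).

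For CSF1R outside C1QA barcodes (13 libraries), the 10 leading genes were FCN1, ENSBTAG00000048980, AIF1, LYZ, F13A1, GRO1, RNASE6, IL1RN, CXCL8, and SIRPA. The neutrophil and monocyte markers summed to a median of 1082 against 43.4 CPM and the macrophage markers to 1235 against 97.9 CPM, each higher in 13 of 13 libraries. FLT3 barcodes (13 libraries) were led by CST3, PLD4, LGALS1, BATF3, CLEC9A, BLA-DQB, ENSBTAG00000009656, BOLA-DRA, ENSBTAG00000013919, and TUBB4A, of which BATF3 and CLEC9A are known from cross-presenting dendritic cells. Their dendritic cell markers summed to 1189 against 118 CPM, higher in 13 of 13 libraries, and CLEC9A itself was 137 against 3.26 CPM. Hematopoietic progenitor markers were higher in 1 of 13 libraries.

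Receptor and ligand were also counted in the same barcode. KIT and KITLG were both found in 149 barcodes, beside 5229 with KIT alone and 4588 with KITLG alone. The 149 were PECAM1 in 81, in no class in 45, and COL1A2 in 17. Of the 373 PECAM1 barcodes with KIT, 77 held at least 2 KIT UMIs. PECAM1 barcodes with at least 1 KIT UMI were compared with PECAM1 barcodes without KIT in 8 libraries. The leading genes were ODC1 (median 152 against 71.2 CPM), LTB (29.7 against 8.47 CPM), and UBD (15.2 against 2.92 CPM). Whether other cells added to the KIT UMIs of this class was not tested. CSF1R and CSF1 were found together in 1075 barcodes, 577 of them C1QA and 402 in no class. In the C1QA class 57 barcodes held CSF1 without CSF1R, where 11451 of all 13920 barcodes held CSF1R. CSF1R and IL34 were found together in 80. FLT3 and FLT3LG met in 434 barcodes, of which 312 were in no class, beside 4332 with FLT3 alone and 23049 with FLT3LG alone. How many shared barcodes the single shares alone would give was not tested. Across 81 sums of at least 50 barcodes, the Pearson correlation of log2(CPM + 5) was -0.23 for KIT and KITLG, -0.04 for CSF1R and CSF1, -0.31 for CSF1R and IL34, and -0.04 for FLT3 and FLT3LG. The sums share libraries and are given as a description.

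The genes most like each member over the same sums, among 11149 genes, are given with their correlation for the closest. KIT was nearest to TXK (0.80), a TEC family kinase, followed by ENSBTAG00000038080, RAB27B, ENSBTAG00000050353, and ARPP21. CSF1R was nearest to MS4A7 (0.97), then LRRC25, FOLR2, CLEC4A, and IGSF6, and FLT3 to SLAMF9 (0.90), then ENSBTAG00000004714, CLEC9A, SNX22, and ADRB3. KITLG was nearest to ADGRL2 (0.95), then WWTR1, PREX2, SLC9A3R2, and NES, and IL34 to PDE5A (0.88), then LPAR1, GLI3, PLOD2, and ADAM33. FLT3LG was nearest to GATA3 (0.85), then FYN, PIH1D1, ANXA6, and STAT4. CSF1 had the weakest match, SQSTM1 (0.70), followed by JUND, UBB, and ITGB3.

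NB and AD libraries of the duodenum, jejunum, cecum, and colon were set side by side within each class of at least 50 barcodes in both, which gave 12 comparisons. With 1 library per tissue and stage there is no replicate error and no test, and a difference was counted when it was at least 2-fold with separate counting intervals and 20 CPM in either library. By this count 15 differences were found, 7 higher in NB and 8 higher in AD. Of these, KIT in CD3E barcodes of the colon and CSF1 in CD3E barcodes of the jejunum had 20 CPM at both stages. The same held for CSF1 and IL34 in COL1A2 barcodes of the colon. In the other counted differences only the higher library reached 20 CPM, so the filter left no other direction. The split between stages is therefore only a description of what passed the filter. CSF1 reached 20 CPM in 8 comparisons, KIT and FLT3LG in 6 each, CSF1R in 5, IL34 in 4, and KITLG in 1. Among all genes, between 5.27% and 14.6% per comparison were counted as NB higher (median 7.35%) and between 3.62% and 27.1% as AD higher (median 14.2%). The plot of NB over AD ratios places each gene by tissue and class.

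**Figure D4:**
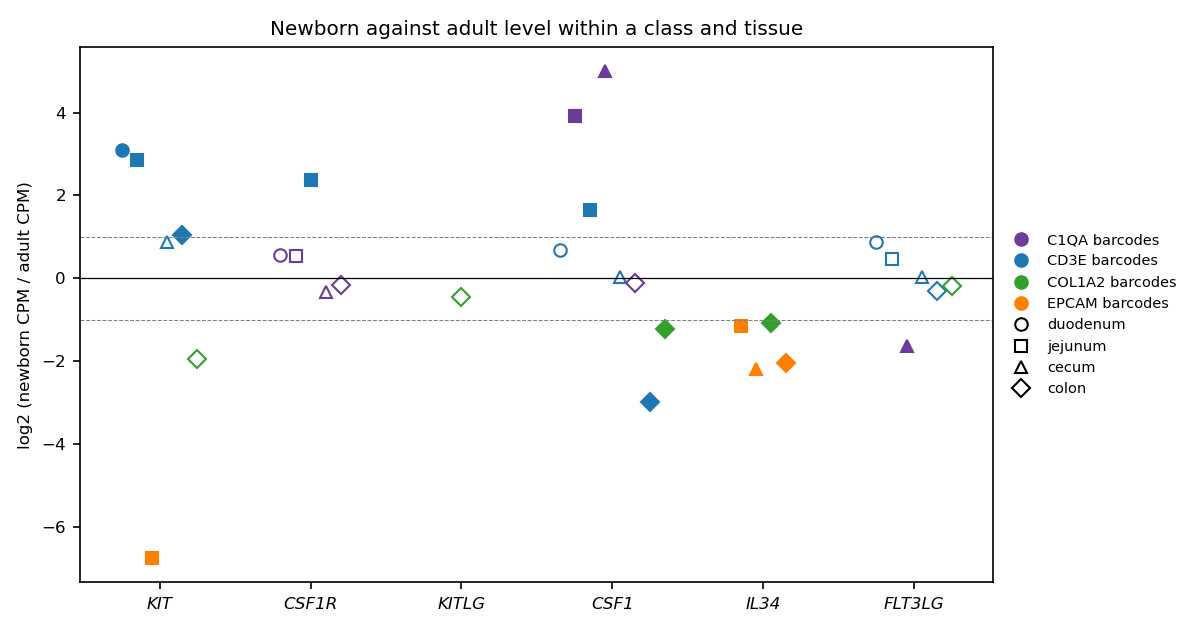
The log2 ratio of NB over AD CPM for each gene that reached 20 CPM in a class and tissue with at least 50 barcodes at both stages (color for the class, shape for the tissue, dashed lines at 2-fold), with filled symbols for the 15 counted differences and open symbols for the others. KIT in CD3E barcodes lies above 0 in 4 tissues and IL34 below 0 in its 4 comparisons. Most filled symbols, and all of IL34 in EPCAM barcodes, had 20 CPM in the higher library only.

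KIT in CD3E barcodes was higher in NB than in AD in all 4 tissues. It was 171 CPM (interval 127 to 225) against 20.0 CPM (18.2 to 21.9) in the duodenum, where 9.9% of genes were counted as NB higher, and 114 against 15.8 CPM in the jejunum (6.92%). In the colon it was 65.0 against 31.2 CPM (11.3%), a log2 ratio of 1.06 that was not counted under TMM scaling (0.96) or in classes by 1 UMI of the class gene and 0 of the others (0.95). In the cecum it was 93.4 against 51.2 CPM, below 2-fold. T cell markers, CD3E among them, summed to 1768 to 2365 CPM in NB and 3770 to 5401 CPM in AD libraries in the same barcodes, and their part in the KIT difference was not tested. Innate lymphoid markers summed to 930 CPM in NB against 1314 CPM in AD in the duodenum, 936 against 376 CPM in the jejunum, 461 against 530 CPM in the cecum, and 311 against 341 CPM in the colon, and their part was not tested either. Mast cell markers summed to at most 37.6 CPM there. In EPCAM barcodes of the jejunum KIT went the other way, 0.41 CPM in NB against 44.5 CPM in AD (27.1% of genes were counted as AD higher there). Those AD barcodes with KIT are the ones described above with high ALOX5AP, LTC4S, and RGS13. Epithelial markers summed to 2669 CPM in NB and 6836 CPM in AD in the same EPCAM barcodes, and their part in the difference was not tested. In COL1A2 barcodes of the colon, KIT at 6.60 against 25.3 CPM had overlapping intervals.

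CSF1 differed in direction between classes and tissues. In C1QA barcodes it was 50.3 against 3.34 CPM in the jejunum (6.64% of genes NB higher and 5.32% AD higher) and 82.9 against 2.60 CPM in the cecum (9.23%), but 23.1 against 24.9 CPM in the colon (7.47% NB higher). In the duodenum these barcodes had 10.5 against 0.88 CPM, with separate intervals but under the 20 CPM needed for a count. Fibroblast markers in these barcodes summed to 40.0 CPM in NB against 1.57 CPM in AD in the jejunum and 158 against 1.30 CPM in the cecum. Endothelial markers summed to 139 against 15.3 CPM and 83.4 against 30.0 CPM, and macrophage markers to 33634 against 36273 CPM and 21698 against 44677 CPM. Their part in the CSF1 difference was not tested. In CD3E barcodes it was 144 against 45.8 CPM in the jejunum (6.92% of genes NB higher and 20.4% AD higher) and, reversed, 8.25 against 65.6 CPM in the colon (17.1% AD higher), while the duodenum (82.0 against 50.9 CPM) and cecum (44.5 against 43.7 CPM) were not counted. In COL1A2 barcodes of the colon it was 44.9 against 104 CPM (9.73% AD higher), a count lost in classes by 1 UMI of the class gene and 0 of the others (log2 ratio -1.20).

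IL34 was higher in AD in the 4 comparisons in which it reached 20 CPM in either library. In EPCAM barcodes only the AD library reached 20 CPM, so a comparison admitted by this filter could only be AD higher there. In EPCAM barcodes it was 22.2 against 10.1 CPM in the jejunum (27.1% of genes AD and 7.23% NB higher), 25.8 against 5.68 CPM in the cecum (11.3% AD and 6.45% NB higher), and 20.2 against 4.93 CPM in the colon (26.6% AD and 5.91% NB higher), and in COL1A2 barcodes of the colon 64.0 against 30.4 CPM. In these EPCAM barcodes, epithelial markers summed to 6836 CPM in AD against 2669 CPM in NB in the jejunum, 10020 against 5760 CPM in the cecum, and 12889 against 4849 CPM in the colon, and their part in the IL34 difference was not tested. The jejunum value lost its count under 3 of 6 other settings, with doublets left in (log2 ratio -0.56), under TMM scaling (-0.64), and in classes by 1 UMI of the class gene and 0 of the others (-0.73). The colon EPCAM value lost its count in the last of these (-1.74), and the COL1A2 value lost its count under 4 of 6 other settings, with log2 ratios of -0.85, -0.99, -1.01, and -1.31 beside -1.08. CSF1R in C1QA barcodes was within 2-fold in the 4 tissues. It was counted once, in CD3E barcodes of the jejunum at 21.0 CPM in NB against 4.02 CPM in AD, where macrophage markers also summed to 205 CPM in NB and 104 CPM in AD, and their part in it was not tested. FLT3LG in CD3E barcodes was within 2-fold in the 4 tissues and was counted once, in C1QA barcodes of the cecum at 8.78 CPM in NB against 27.3 CPM in AD (6.56%), a count lost in classes by 1 UMI (log2 ratio -0.86). KITLG reached 20 CPM only in COL1A2 barcodes of the colon, at 48.8 against 66.7 CPM, and FLT3 in none of the 12 comparisons. In barcodes of no class, FLT3 was 29.2 CPM in NB against 156 CPM in AD in the jejunum. It was 64.1 against 18.6 CPM in the cecum, 42.9 against 44.6 CPM in the duodenum, and 13.1 against 19.7 CPM in the colon. These barcodes are a mixture that differed between libraries. PTPRC was found in 13.4% of them in NB against 61.3% in AD in the jejunum. The shares were 51.1% against 60.3% in the cecum, 15.8% against 52.0% in the duodenum, and 40.9% against 56.8% in the colon. The part of this mixture in the FLT3 levels was not tested.

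From ligand and receptor maps, the study inferred KIT signaling of STOML3-marked cells of the NB liver, chiefly among themselves and with a cholangiocyte. The members were therefore read there separately. The values here are UMI levels and not the communication probability that the study inferred. The study defined its cells as a cluster, with HOXA9, INKA1, MFAP2, and TGFB2 among the markers beside STOML3. Here a barcode was taken by at least 1 STOML3 UMI alone, so these barcodes need not be the same cells. In the NB liver 77 barcodes held a STOML3 UMI, of which 62 were in no class, 10 C1QA, 3 CD3E, 1 PECAM1, and 1 EPCAM. KIT was 115 CPM in these barcodes (interval 89.3 to 145), with a KIT UMI in 37 of 77 (48.1%). FLT3 was 147 CPM (118 to 181; 42 of 77 barcodes), and 25 barcodes held both receptors. In the 62 barcodes of no class, a subset added after the classes were seen, KIT was 133 CPM (102 to 171), FLT3 169 CPM (134 to 211), and CSF1R 40.8 CPM (24.5 to 63.7), against 98.2 CPM of CSF1R in all 77. Of the ligands, the 77 barcodes held 2 KITLG UMIs, 5 of CSF1 (8.18 CPM), 7 of FLT3LG (11.5 CPM), and no IL34, and the 62 held 0, 5, 5, and 0.

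The 112 EPCAM barcodes of the NB liver without STOML3 carried KRT19, a keratin of bile duct cells, at 698 CPM, and KIT at 73.9 CPM (56.3 to 95.3; 36.6% of barcodes). They had 6.26 CPM of KITLG (2.03 to 14.6), 32.6 CPM of CSF1, and 1.25 CPM of FLT3 (1 UMI). The KIT interval of all 77 STOML3 barcodes overlapped that of the EPCAM barcodes, whereas that of the 62 STOML3 barcodes of no class lay above it, and so did that of the 53 barcodes with at least 2 STOML3 UMIs (145 CPM; 110 to 187). FLT3 intervals did not overlap. PECAM1 barcodes (38) had the highest KITLG of the library at 57.7 CPM (31.5 to 96.7) and no KIT UMI in 38 barcodes, which allows a share of up to 7.89% by the same floor. C1QA barcodes (3326), which should lack KIT, had 1.82 CPM (1.05% of barcodes at a median of 8298.5 UMIs), and CD3E barcodes (3123) 42.4 CPM. CPA3 was at 0 in the STOML3 and in the EPCAM barcodes, and CD34, a progenitor and endothelial gene, was 45.8 CPM in STOML3 barcodes and at 0 in EPCAM barcodes.

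**Figure D5:**
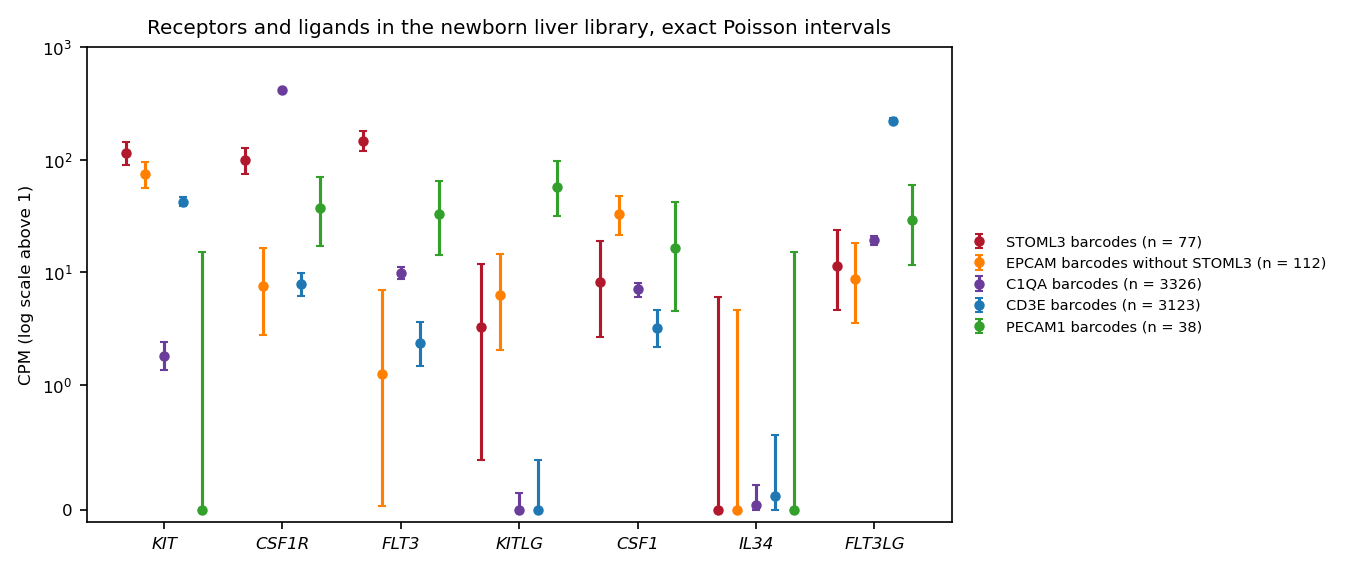
Levels of the 7 genes (CPM, log scale above 1 and linear below) in 5 barcode groups of the NB liver, with exact 95% Poisson intervals, where the STOML3 group also holds 10 C1QA, 3 CD3E, and 1 PECAM1 barcodes. KIT is 115 CPM in STOML3 and 73.9 CPM in EPCAM barcodes, FLT3 is 147 and 1.25 CPM, and KITLG is highest in PECAM1 barcodes at 57.7 CPM.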

How the data were processed

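The authors made the deposited count matrices (UMI counts per gene and cell barcode) with Cell Ranger 3.1.0 on the cattle genome ARS-UCD1.2, as the labels and the study's methods state. The annotation release is not given in the sources used here. Libraries were 10x 3' libraries, so gene levels were compared between cells and not between genes.

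Barcodes with 500 to 4000 genes, under 50000 UMIs, and under 40% UMIs of 13 mitochondrial genes were kept. Doublets were scored against 2 simulated doublets per cell (2000 variable genes, 30 components) and the top 0.8% per 1000 cells were removed. A barcode joined a class with at least 2 UMIs of the class gene and at least 75% of the UMIs of the 7 class genes, and the COL1A2, PECAM1, MYH11, and EPCAM classes also required 0 UMIs of PTPRC. Shares were recomputed after thinning to 1000 UMIs. Sums of at least 20 barcodes per library and class were tested with edgeR 4.0.16 (quasi-likelihood test, TMM, library as a block, Benjamini-Hochberg adjusted p under 0.05), and DESeq2 1.42.0 was an alternative. Each SE is the absolute log2 difference divided by the square root of its F statistic, and not an error estimated by the fit. The 11 NB libraries came from 3 calves and the 4 AD libraries from 1 cow, so libraries share animals. The p-values cover the spread between libraries and not between animals.

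Stages were compared without a test, since each tissue and stage had 1 library. A difference was counted at 2-fold with separate intervals and 20 CPM in either library. All 7 members were named. Of each gene list up to 4 called genes with the largest differences were named (all 6 PDGF genes), with the 5 genes most like each member (pseudocount 5 CPM) and 10 genes per receptor in barcodes with it (pseudocount 20 CPM). A few genes that these rules name are not reported here. The members, classes, and lists were chosen with earlier results of these data known. The edgeR contrast of CPA3 barcodes was tried on simulated counts. It recovered 149 of 200 genes changed 4-fold (74.5%), with 15 false calls among 10876 genes. The simulated classes differed in no other genes. Python 3.11.15, numpy 2.4.6, pandas 2.3.3, scipy 1.17.1, scikit-learn 1.9.0, matplotlib 3.10.9, and R 4.3.3 were used.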

Additional observations from a re-analysis of the deposited data

Results flagged for a closer look

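CSF1 in CD3E barcodes moved in opposite directions between NB and AD libraries of different tissues. The log2 ratio of NB over AD was 1.65 in the jejunum (144 against 45.8 CPM) and -2.99 in the colon (8.25 against 65.6 CPM). With 1 library per tissue and stage, the difference between the tissues was not tested.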

How the results depend on the processing

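The 28 called contrasts were recomputed under 13 other settings, which gave 363 values, of which 339 kept direction and call, 23 kept the direction and lost the call, and 1 reversed. The reversal was CSF1R in PECAM1 barcodes, at 0.66 without the condition on PTPRC. Leaving out each library gave 13 to 15 members higher and 10 to 13 lower, and 11 of 413 single values lost their call. Beside those given above, these were KITLG in C1QA (-3.22) and CD3E barcodes (-4.80) without the NB rectum, IL34 in C1QA (-2.41), CD3E (-2.49), and PECAM1 barcodes (-2.39) without the NB cecum, and CSF1R in PECAM1 barcodes (-1.03) without the NB duodenum. Other settings that moved a higher call by over 1.5 times and are not given above were NB libraries only (CSF1 in CPA3 3.39, IL34 in EPCAM barcodes 1.44), sums of at least 50 barcodes (CSF1 in CPA3 3.45, KIT in CD3E 3.88), mitochondrial UMIs under 10% (KIT in CD3E 4.00, KITLG in PECAM1 5.09, COL1A2 4.53, and MYH11 4.25), no upper limit on genes (KIT in CPA3 7.53, CD3E 2.62), no condition on PTPRC (KIT in CPA3 7.42), no library block (CSF1R in C1QA 8.02), and classes by 1 UMI (CSF1R in C1QA 7.67, IL34 in COL1A2 6.28 and MYH11 4.50). Classes by 1 UMI of the gene and 0 of the others gave 6 members lower, and 12 stage differences higher in NB and 4 higher in AD. DESeq2 gave 15 higher and 15 lower. FLT3 could not be tested in 8 of 28 settings, where it fell to the filter on low counts. Thinning to 2000 UMIs gave median shares of 78.1% for KIT in CPA3, 8.15% for KITLG in PECAM1, 72.5% for CSF1R in C1QA, 10.8% for CSF1 in COL1A2, and 28.9% for FLT3LG in CD3E barcodes. NB liver barcodes with at least 2 STOML3 UMIs had 145 CPM of KIT, 186 CPM of FLT3, and 58.9 CPM of CSF1R. Of 89 values of the stage differences, 77 kept their call and 12 lost it. The causes were not tested. No paired analysis was possible because every group had 1 library and the 4 AD libraries came from 1 cow, so that tissues paired across stages are not replicates of a stage.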
